A study of Mus musculus with 4 samples.

Results

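The genes described here are 1868 genes on mouse chromosomes 1, 11 and 14, of 24594 genes in the count table: 615 on chromosome 1, 881 on chromosome 11 and 372 on chromosome 14. The 3 chromosomes were chosen by the readout itself, because their genes were slightly higher (chromosome 1) or slightly lower (chromosomes 11 and 14) in Snf2l knockout than in wild-type (WT) cells. Chromosome medians are therefore given as a description, with no test. A gene was a member if its Entrez identifier lies on one of these chromosomes of mm10 and each of the 4 libraries had 50 or more counts. Genes whose symbols begin with Rpl, Rps, Nduf or Cox, mainly those of ribosomal and respiratory chain proteins, were left out. The same filter kept 10658 genes over all chromosomes and 7846 on the 15 other autosomes, a group that leaves out chromosome 8.

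Poly(A) RNA was sequenced from untreated embryonic stem cells (ESCs) of the 129S6/SvEvTac background, in 2 libraries from WT cells (WT1, WT2) and 2 from Snf2l knockout cells (KO1, KO2). The knockout had been made with Cas9 and was represented by 1 clone, so genotype and clone cannot be told apart. Library totals were 13771642 and 15353956 counts in WT and 15608803 and 15290806 in the knockout. The study's methods call its RNA-seq replicates independent, and its reporting summary calls replicates biological. No label says that these duplicates came from separate cultures. The p-values therefore measure only the spread between these samples, which may be partly technical. Smarca1, the Snf2l gene, had 620 and 626 counts in WT and 37 and 31 in the knockout libraries. The 8 ESC markers examined, among them Pou5f1, Sox2 and Nanog, were all detected and summed to between 4330 and 4820 CPM per library, where CPM is the count scaled to the library size (for marker sums the plain library total).

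SNF2L is an ATPase of the ISWI family, whose complexes slide and space nucleosomes. In mammalian cells the RNA level of most autosomal genes tends to follow the number of copies of their chromosome, so bulk RNA profiles carry a weak record of dosage along the genome. Cultured mouse ESCs are known to gain or lose whole chromosomes, and gains of chromosomes 8 and 11 are the best known. This is background, and chromosome copy number was not measured here. In bulk RNA, a change in a share of the cells and a smaller change in every cell cannot be told apart.

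The chromosome 1 genes were higher in the knockout by a median of 0.091 on the log2 scale, which is 6.49%. Ratios are log2 knockout over WT from edgeR, set relative to the median of the 10658 genes. Chromosome 11 genes were lower by 5.88%, at a median of -0.087, and chromosome 14 genes by 4.6%, at -0.068. The medians of the other 15 autosomes ran from -0.016 on chromosome 18 to 0.063 on chromosome 7. Chromosome 1 was thus the highest of these 18 autosomes by a narrow margin over chromosome 7, while chromosomes 11 and 14 were the lowest by a wider one. Chromosome 8, at -0.50, moved much further than any of them.

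**Figure D1:**
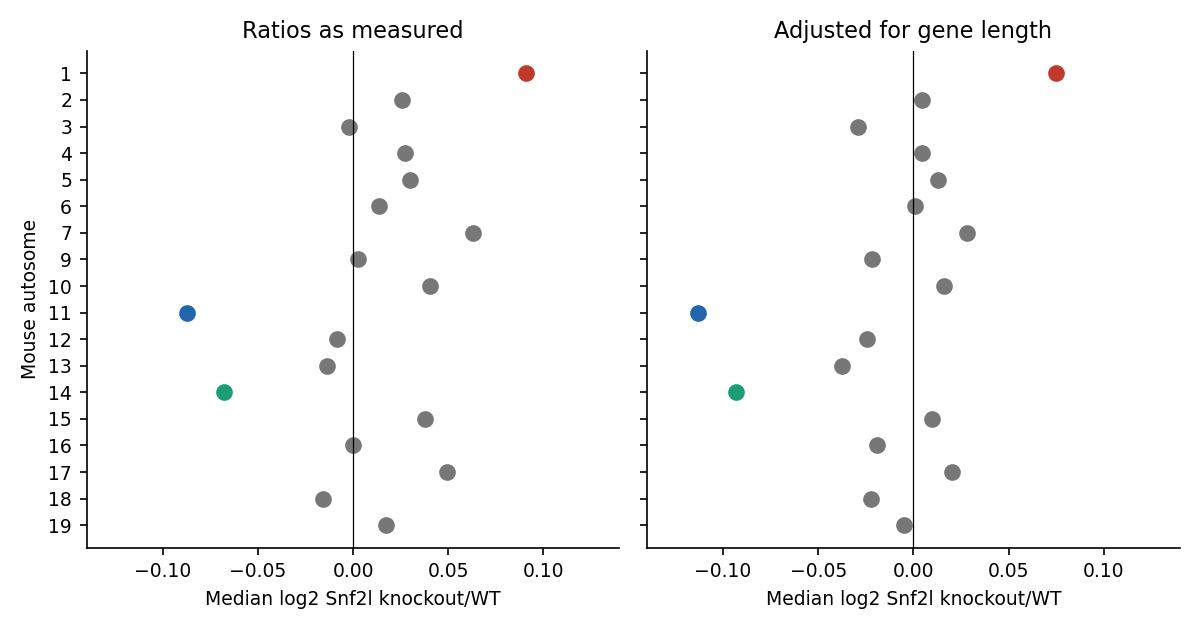
Median log2 ratio of Snf2l knockout over WT (horizontal axis) for each autosome but 8 (vertical axis), as measured on the left and after subtracting the other autosomes' median for genes of the same length quartile on the right. Each point is 1 chromosome, with 1, 11 and 14 in colour. Chromosome 1 lies at 0.091 on the left and 0.075 on the right, and chromosome 7, the next highest, at 0.063 and 0.028.

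The displacement was found over the whole distribution and not in a tail. Of the chromosome 1 genes, 436 of 615 (70.9%) lay above the reference median. On chromosome 11, 602 of 881 genes (68.3%) lay below it, and on chromosome 14, 241 of 372 (64.8%). Of the genes of the 15 other autosomes, 54.8% lay above this median and 45.2% below, with up to 62.5% above on chromosome 17. Against the pooled genes of the 15 other autosomes, chromosome 11 was lower by 0.11 at the 10th, 0.11 at the 50th and 0.12 at the 90th percentile. Chromosome 14 differed by -0.096, -0.088 and -0.13 at these percentiles, and chromosome 1 by 0.068, 0.070 and 0.050. The genes of one chromosome spread far more widely than it moved, with interquartile ranges of 0.22, 0.24 and 0.22 on chromosomes 1, 11 and 14 against 0.23 on the other autosomes.

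Summed counts gave shifts of the same signs. They are the counts on which the chromosomes were chosen, so they are no separate evidence. Chromosome 1 members held 8.17% and 7.92% of all counts in the WT libraries and 8.70% and 8.52% in the knockout libraries, a share higher by 7.03%. Chromosome 11 members held 10.1% in each WT library and 9.48% and 9.54% in the knockout, lower by 5.61% (-5.61%). The chromosome 14 members held 3.01%, 2.99%, 2.89% and 2.86% in WT1, WT2, KO1 and KO2, a difference of -4.14%. On each of the 3 chromosomes the shares of the knockout and WT libraries did not overlap, from which, given that choice, nothing is read.

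Each library's own position was then taken as the median, over the members, of its log2 level relative to the gene's mean over the 4 libraries. For chromosome 1 it was -0.030 in WT1, -0.064 in WT2, 0.053 in KO1 and 0.035 in KO2. For chromosome 11 it was 0.026, 0.054, -0.044 and -0.030 in the same order, and for chromosome 14 it was 0.032, 0.035, -0.044 and -0.040. Within a genotype the libraries differed by a pooled SD of 0.019, 0.015 and 0.0026 on chromosomes 1, 11 and 14. The distance between genotypes exceeded the spread between replicates on all 3, and since the chromosomes were selected on this difference, no test was made.

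All 4 pairs of a knockout and a WT library gave the same signs. The chromosome 1 median was 0.084 in KO1/WT1, 0.11 in KO1/WT2, 0.076 in KO2/WT1 and 0.098 in KO2/WT2. The chromosome 11 median was -0.080, -0.100, -0.058 and -0.087 in these pairs, and the chromosome 14 median -0.070, -0.084, -0.063 and -0.066. The pair KO2/WT1 was the least clear, because its other autosomes ranged from -0.066 to 0.089, so that 1 of them lay above chromosome 1 and 1 lay below both chromosomes 11 and 14. In the other 3 pairs all 15 lay between. Within genotypes, WT2/WT1 gave -0.031, 0.018 and -0.0018 for chromosomes 1, 11 and 14, and KO2/KO1 gave -0.023, 0.0062 and -0.0044. These lay inside the ranges of the other autosomes, -0.042 to 0.038 and -0.025 to 0.026.

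The pairs also differed by gene length, the summed exon length that the count table gives for each gene. On the 15 other autosomes the shortest quartile of genes (61 to 2891 bp) exceeded the longest (6670 to 123200 bp) by 0.35 in the pair KO2/WT1, by 0.16 in KO2/WT2 and by 0.078 in KO1/WT1, and lay 0.11 below it (-0.11) in KO1/WT2. Between replicates the difference was 0.20 in WT2/WT1 and 0.28 in KO2/KO1, less than in KO2/WT1 but more than in KO2/WT2. Length thus also separated libraries of the same genotype, and its order among the pairs did not follow genotype.

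Subtracting the other autosomes' median for the same length quartile narrowed the background. The 15 other autosomes then ranged from -0.037 to 0.028, and chromosomes 1, 11 and 14 stood at 0.075, -0.11 and -0.093. The same was then computed by pair, which was added after the data had been seen. In each of the 4 pairs of a knockout and a WT library all 15 lay between chromosome 1 on one side and chromosomes 11 and 14 on the other. In KO2/WT1, the pair with the strongest length trend, chromosome 1 lay at 0.070, chromosome 11 at -0.11 and chromosome 14 at -0.078, with the others between -0.055 and 0.042. Within genotypes the values for the 3 chromosomes ran from -0.015 to 0.011. The one value there outside the other autosomes was chromosome 11 in KO2/KO1, at -0.014 against -0.012 to 0.016.

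**Figure D2:**
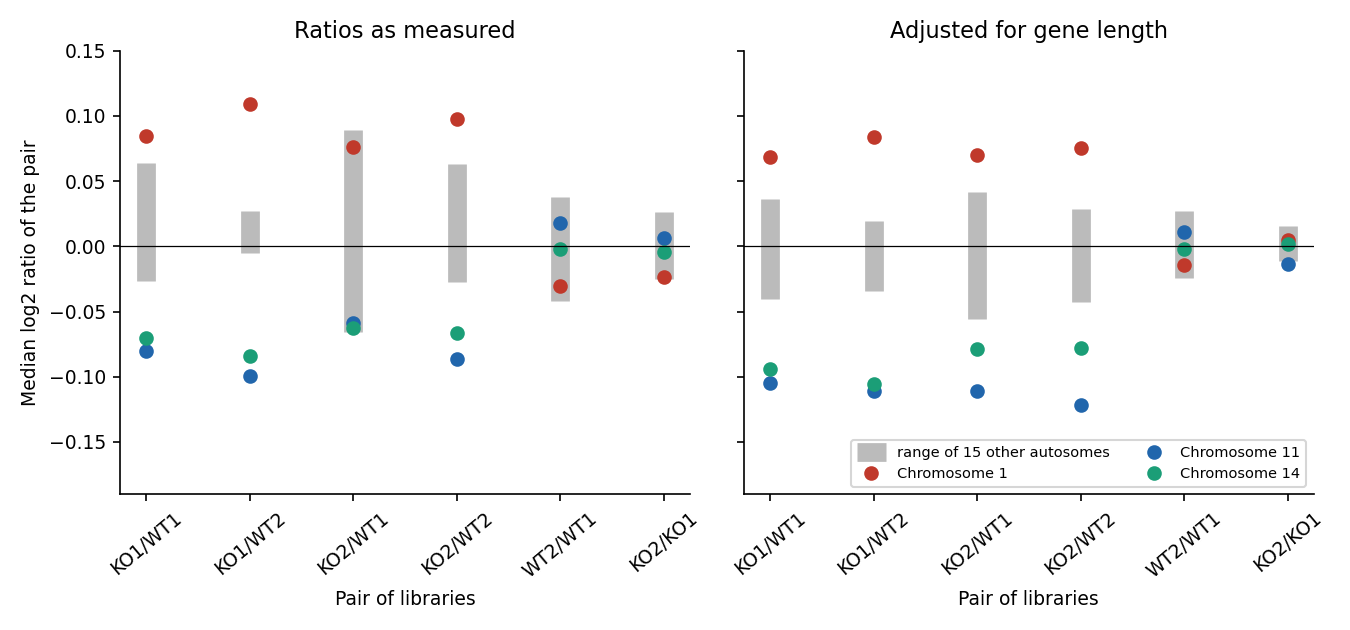
Median log2 ratio (vertical axis) of chromosomes 1, 11 and 14 in each of the 6 pairs of libraries (horizontal axis), as measured and adjusted for gene length. Points are the 3 chromosomes and grey bars the range of the 15 other autosomes. In KO2/WT1 the bar reaches from -0.066 to 0.089 as measured and covers all 3 points, and after the adjustment it covers none of them.

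Along the chromosomes the shift was not confined to a single stretch, and its origin was not tested. Positions were cut into windows of 10 Mb, and a window's median was read where it held 20 or more members. On chromosome 1 all 13 such windows were above 0, from 0.0094 at 190 to 200 Mb to 0.14 at 130 to 140 Mb. On chromosome 11 all 12 were below 0, from -0.17 at 20 to 30 Mb to -0.018 at 110 to 120 Mb. On chromosome 14, 5 of 6 were below 0, with the lowest at 30 to 40 Mb (-0.14) and the exception at 40 to 50 Mb (0.0028). Of 146 such windows on the other autosomes, 89 were above 0 and 57 were not.

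Within each chromosome the size of the shift varied by position. Window medians also varied on the other autosomes, from -0.18 to 0.12 over their windows with 20 or more genes. Whether the stretches named here differ from that variation was not tested. Chromosome 11 had its lowest stretches at 20 to 40 Mb, with medians of -0.17 and -0.16, and at 80 to 90 Mb, with -0.16. In the window at 30 to 40 Mb 4.17% of 24 genes lay above the reference. Chromosome 14 was nearly flat from 40 to 60 Mb, at 0.0028 and -0.018 over 27 and 99 genes, and lower on both sides. With the members of a chromosome split by order into proximal, middle and distal groups of equal size, chromosome 1 had medians of 0.072, 0.13 and 0.080, chromosome 11 of -0.11, -0.099 and -0.058, and chromosome 14 of -0.089, -0.034 and -0.093. After the length adjustment all 6 windows of chromosome 14 with 20 or more members lay below 0, from -0.12 to -0.040, and the flat stretch read -0.052 and -0.040. The windows of chromosome 11 then ran from -0.19 to -0.036 and those of chromosome 1 from 0.013 to 0.14. The other autosomes had 64 windows above and 82 below 0, from -0.14 to 0.11.

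**Figure D3:**
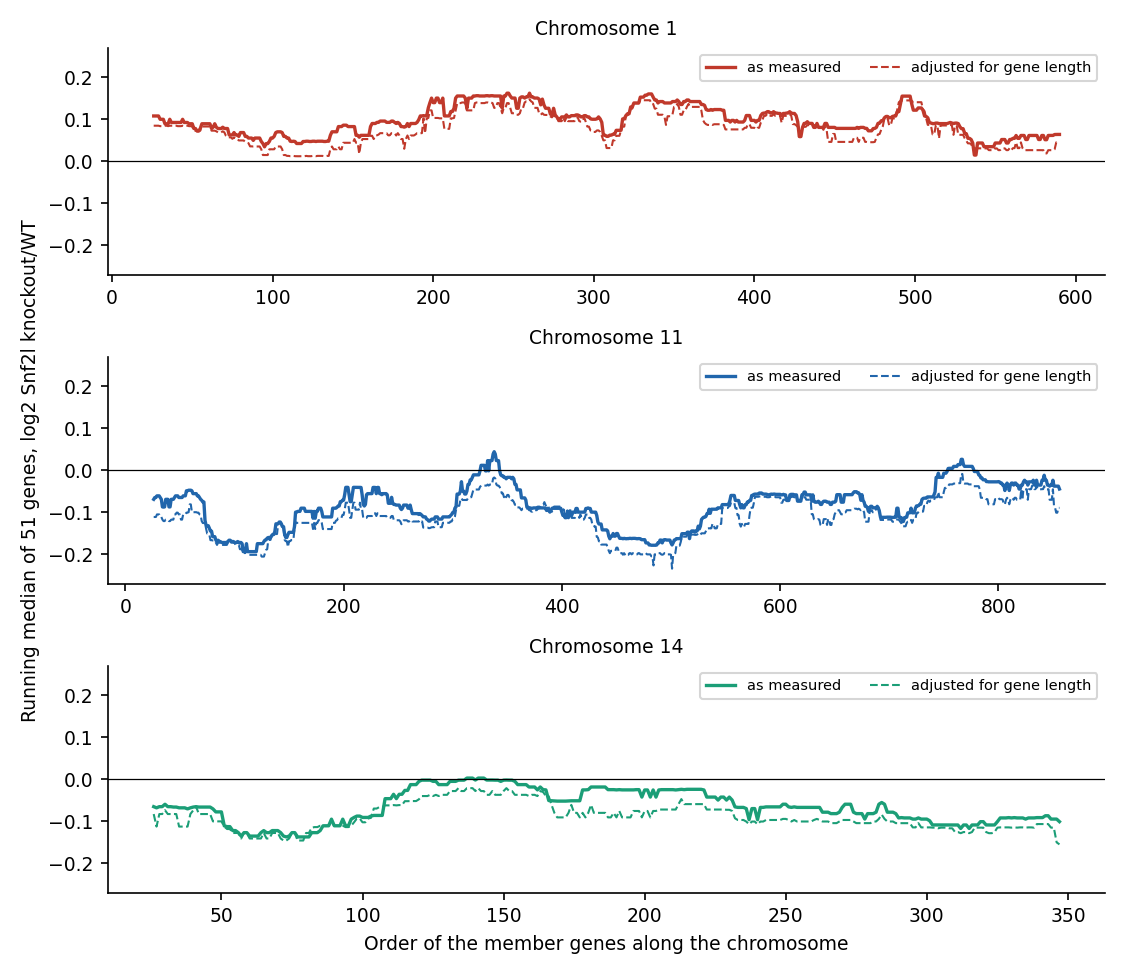
Running median of the log2 ratio of Snf2l knockout over WT over 51 neighbouring member genes (vertical axis), by the order of the genes along each chromosome (horizontal axis). Solid lines are ratios as measured and dashed lines are adjusted for gene length. Chromosome 1 stays above 0 at all 565 positions, chromosome 11 is below 0 at 793 of 831 and chromosome 14 at 316 of 322.

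By expression level the chromosome 1 medians were 0.088, 0.083, 0.093 and 0.090 from the lowest quartile of mean CPM (3.52 to 15.9) to the highest (91.9 to 9037). The share of its genes above the reference was 61.9% in the lowest quartile and 76.0% in the highest. On chromosome 11 the medians were -0.053, -0.060, -0.099 and -0.095, and the share above the reference was 42.5% in the lowest and 21.3% in the highest quartile. Chromosome 14 had no order, at -0.083, -0.026, -0.098 and -0.070. The other autosomes read 0.062 in the lowest quartile and 0.019, 0.0064 and 0.0079 above it. Their share above the reference was 59.7% in the lowest and 52.9% in the highest quartile. Relative to them chromosome 1 stood at 0.026, 0.064, 0.087 and 0.082, so that its distance was smallest among the weakly expressed genes. Chromosome 11 stood at -0.11, -0.079, -0.11 and -0.10, and chromosome 14 at -0.14, -0.045, -0.10 and -0.078.

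By gene length every curve sloped from higher ratios in short genes to lower ratios in long genes. From the shortest to the longest quartile the medians were 0.14, 0.12, 0.089 and 0.046 on chromosome 1, -0.032, -0.067, -0.11 and -0.15 on chromosome 11, -0.035, -0.072, -0.074 and -0.10 on chromosome 14 and 0.078, 0.035, 0.0057 and -0.037 on the other autosomes. The distance of chromosome 11 from the other autosomes hardly varied, at -0.11, -0.10, -0.12 and -0.11. For chromosome 1 it was 0.061, 0.087, 0.084 and 0.083, and for chromosome 14 it was -0.11, -0.11, -0.080 and -0.068. Chromosome 11 genes were shorter than those of the other autosomes (median 3980 against 4476 bp) and chromosome 1 genes longer (5271 bp), while in every group the shorter genes had the higher ratios.

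**Figure D4:**
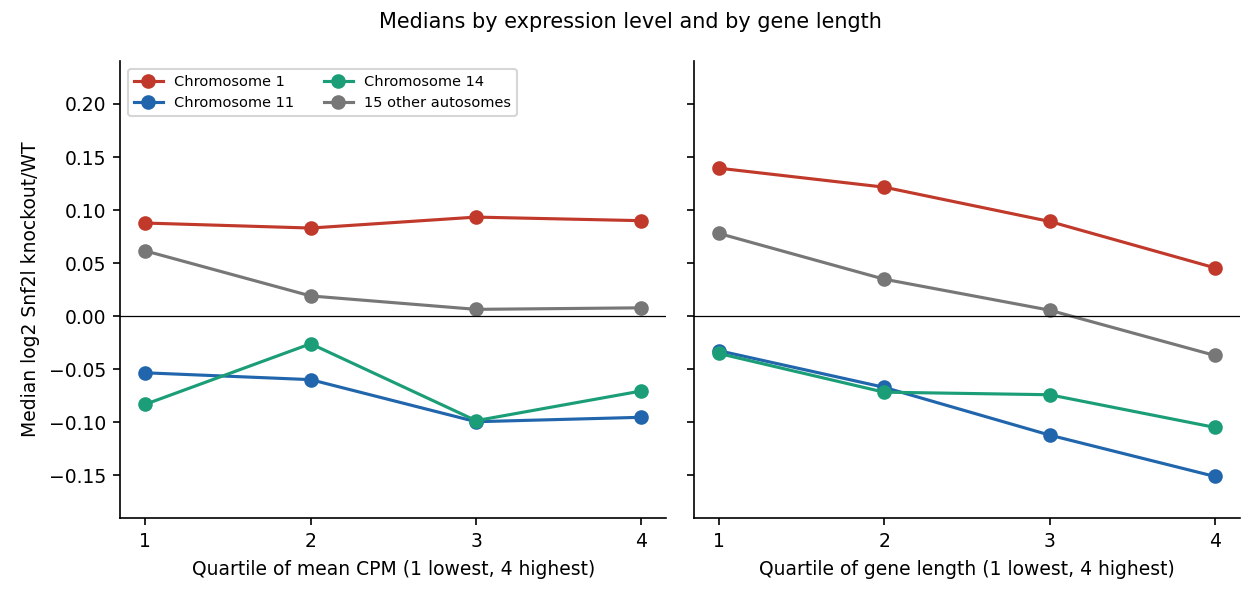
Median log2 ratio of Snf2l knockout over WT (vertical axis) by quartile of mean CPM and of gene length (horizontal axes), for members of chromosomes 1, 11 and 14 and genes of the 15 other autosomes. Points are medians over genes. In every quartile of length chromosome 1 lies above the other autosomes and chromosomes 11 and 14 below, where chromosome 1 goes from 0.14 to 0.046 and the other autosomes from 0.078 to -0.037.

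Base composition of the promoter showed no slope. A promoter sequence (RefSeq, GRCm38.p6, 250 bases before to 50 after the start) was at hand for 516 members on chromosome 1, 724 on chromosome 11 and 278 on chromosome 14, with median GC contents of 62.0%, 62.0% and 60.4% against 61.3% for all 8594 genes of the same filter that had one. Over these 8594 genes promoter GC ran from 28.7% to 88.0%. As examples, the promoters of the lowest and the highest GC content among the largest rises and falls described further on are printed. Only genes with a single promoter entry were considered, and each CG pair is in capitals. CG pairs are where vertebrate DNA is mainly methylated, and promoters rich in them are typical of broadly expressed genes. The Klf12 promoter (chr14:100149747-100150046, minus strand) is that of a RefSeq transcript start inside the gene, which reaches from 99866181 to 100285891, and has 45.7% GC and 6 CG pairs. The Arl4c promoter (chr1:88702142-88702441, minus strand) has 74.0% GC and 44 CG pairs, against a median of 22 over the 8594 promoters.

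Klf12: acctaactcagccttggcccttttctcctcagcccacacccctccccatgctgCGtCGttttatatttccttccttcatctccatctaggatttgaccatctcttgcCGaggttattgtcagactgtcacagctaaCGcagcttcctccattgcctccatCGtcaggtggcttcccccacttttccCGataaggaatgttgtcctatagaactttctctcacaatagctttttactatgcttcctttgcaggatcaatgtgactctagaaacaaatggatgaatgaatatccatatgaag

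Arl4c: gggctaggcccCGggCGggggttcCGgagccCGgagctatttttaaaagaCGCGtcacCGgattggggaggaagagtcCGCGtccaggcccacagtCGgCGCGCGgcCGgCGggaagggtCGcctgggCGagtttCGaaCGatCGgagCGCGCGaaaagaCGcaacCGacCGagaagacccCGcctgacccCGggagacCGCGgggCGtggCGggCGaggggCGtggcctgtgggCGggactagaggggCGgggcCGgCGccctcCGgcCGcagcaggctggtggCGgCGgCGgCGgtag

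From the lowest to the highest quartile of promoter GC the medians were 0.088, 0.10, 0.11 and 0.074 on chromosome 1, -0.098, -0.091, -0.073 and -0.090 on chromosome 11, -0.052, -0.043, -0.089 and -0.070 on chromosome 14 and 0.016, 0.037, 0.020 and 0.011 on the other autosomes. Each of the 3 chromosomes kept its side of the other autosomes in all 4 quartiles.

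Single genes rarely passed a test at shifts of this size. By edgeR's quasi-likelihood test with Benjamini-Hochberg adjustment over 13840 genes, at an adjusted p under 0.05, chromosome 1 had 48 genes higher (7.8%) and 9 lower (1.46%) in the knockout. Over the 10658 genes the shares were 3.97% higher and 5.72% lower. Without chromosomes 8 and Y they were 4.14% and 1.84%. Chromosome 11 had 16 higher (1.82%) and 39 lower (4.43%), and chromosome 14 had 7 higher (1.88%) and 17 lower (4.57%). As the chromosomes were selected on this contrast, nothing is read from these shares. The totals of 57, 55 and 24 called genes became 27, 30 and 11 without WT1 and 96, 132 and 56 without KO1. Without WT2 those of chromosomes 1 and 14 became 36 and 14.

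Called genes were mostly changed by less than 2-fold, namely 45 of the 48 that rose and 7 of the 9 that fell on chromosome 1, 14 of 16 and 37 of 39 on chromosome 11, and 6 of 7 and 17 of 17 on chromosome 14. At the study's threshold for differentially expressed genes (adjusted p under 0.01 and over 2-fold), 5 members of chromosome 1 were called, 4 of chromosome 11 and 1 of chromosome 14, against 0.497% of the 10658 genes. That 1 on chromosome 14 became 2 without WT1, without KO1 or without KO2. When the median of each chromosome was first taken out with an offset, chromosome 1 had 17 genes higher and 9 lower, chromosome 11 had 25 and 13, and chromosome 14 had 10 and 9. All 17 and 9 of chromosome 1 were among those called before, and Eif4e2, Cdc27 and Setdb2, described further on, lost their calls.

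More members kept the order of the libraries without passing the test. On chromosome 1, 250 genes (40.7%) were higher in both knockout libraries than in both WT libraries and 64 (10.4%) lower. On chromosome 11 these were 118 (13.4%) and 377 (42.8%), and on chromosome 14 they were 47 (12.6%) and 147 (39.5%). Over all chromosomes 24.7% were higher and 26.2% lower in this sense, and without chromosomes 8 and Y 26.1% and 22.2%. The 3 most abundant members of each chromosome give examples. Npm1, on chromosome 11, codes for the nucleolar chaperone nucleophosmin and had 3217 and 3246 CPM in WT and 2559 and 2904 CPM in the knockout. For Npm1 edgeR gave a log2 difference of -0.24 ± 0.080 (SE, adjusted p = 0.078). Kpnb1, the importin beta of the same chromosome, and Ipo5, an importin on chromosome 14, were each lower in both knockout libraries by log2 fold changes of -0.14 and -0.15 without passing the test (edgeR adjusted p = 0.30 and 0.26). On chromosome 1 the most abundant gene, Ncl, which codes for nucleolin, overlapped between genotypes at 7708 and 7581 CPM in WT and 7661 and 8103 CPM in the knockout. Hnrnpu and Trip12 on chromosome 1 and Rack1 on chromosome 11 overlapped as well, with log2 fold changes of 0.049, 0.12 and -0.064. Hnrnpc and Supt16 on chromosome 14 were lower in both knockout libraries, by log2 fold changes of -0.087 and -0.13, and did not pass the test.

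On chromosome 1 the genes with the largest rise were Mael, Rgs16, Arl4c and Gpa33. Mael, a piRNA pathway gene of germ cells (chromosome 1, 166201385 to 166238744), was counted 150 and 181 times in WT against 391 and 416 times in the knockout libraries. The groups did not overlap, and the log2 fold change by edgeR was 1.19 ± 0.13 (SE) at an adjusted p of 5.4e-05. Rgs16, a regulator of G protein signalling, had 4.70 CPM in each WT library and 9.62 and 10.3 CPM in the knockout (2.12-fold). The small GTPase gene Arl4c, whose promoter is printed above, rose 2.07-fold, and Gpa33, a cell surface antigen of intestinal epithelium, rose 1.97-fold.

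The largest falls on chromosome 1 were those of Nrp2, Lefty2, Inpp1 and Lemd1, against the direction of their chromosome. Nrp2, a receptor for semaphorins and VEGF (chromosome 1, 62703317 to 62818692), had 83.5 and 73.9 CPM in WT and 37.7 and 31.7 CPM in the knockout, and edgeR gave a log2 difference of -1.18 ± 0.11 (SE, adjusted p = 2.0e-05). Lefty2, a secreted inhibitor of Nodal, was counted 368 and 445 times in WT against 182 and 219 times in the knockout. Its neighbour and near copy Lefty1 fell as well, from 449 and 613 counts to 344 and 370, and reads of such similar genes can be misassigned. The phosphatase gene Inpp1 fell 1.91-fold and Lemd1, which codes for a LEM domain protein, 1.68-fold.

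On chromosome 11 the largest rises, Col1a1, Tnfsf12, Upp1 and Tnfsfm13, also ran against the chromosome. Col1a1, a chain of type I collagen (chromosome 11, 94936224 to 94953042), had 77 and 69 counts in WT and 207 and 211 in the knockout, and edgeR gave a log2 difference of 1.41 ± 0.16 (SE, adjusted p = 9.2e-05). It is one of 7 fibroblast markers whose summed level went with genotype, at 13.2 and 11.3 CPM of the plain library total in WT and 25.1 and 26.0 CPM in the knockout. Col3a1 had 4 and 8 counts in WT and 29 and 42 in the knockout, and Postn 5 and 3 against 15 and 10. Thy1 had 74 and 58 counts in WT and 98 in each knockout library, and Col1a2 22 and 33 against 43 and 34. Lum was at 0 in all 4 libraries and Dcn at 0 to 2 counts. The part of such cells in the Col1a1 rise was not tested. Upp1, the uridine phosphorylase, had 189 and 219 CPM in WT and 374 and 415 CPM in the knockout. Tnfsf12, a cytokine gene, and Tnfsfm13, the transcript that reads through it into Tnfsf13, rose 2.2-fold and 1.9-fold, but they share a locus and so reads of one can be counted for the other.

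The largest falls on chromosome 11 were in Krt17, Slfn9, Ntn1 and Plcd3. Krt17, an epithelial keratin (chromosome 11, 100256215 to 100261029), had 9.62 and 10.3 CPM in WT and 4.84 and 4.10 CPM in the knockout, and edgeR gave a log2 difference of -1.16 ± 0.17 (SE, adjusted p = 0.00056). Slfn9, of the Schlafen family with its closely related copies, had 32.1 and 32.0 CPM in WT and 17.2 and 14.2 CPM in the knockout. The guidance cue gene Ntn1 fell 1.78-fold and the phospholipase gene Plcd3 1.74-fold. The 4 falls were several times larger than the chromosome median.

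On chromosome 14 the largest rises were Loxl2, Rnf17, Pck2 and Dok2. Loxl2, an enzyme that crosslinks collagen (chromosome 14, 69608692 to 69695834), had 62 and 66 counts in WT and 170 and 182 in the knockout, and edgeR gave a log2 difference of 1.36 ± 0.16 (SE, adjusted p = 0.00015), and was the one differentially expressed member of this chromosome. Rnf17, a Tudor domain gene of germ cells, had 92.2 and 85.7 CPM in WT and 165 and 164 CPM in the knockout. Pck2, the mitochondrial phosphoenolpyruvate carboxykinase, rose 1.7-fold. Dok2, a docking protein gene that overlaps the far more abundant Xpo7, had 55 and 69 counts in WT and 91 and 118 in the knockout (edgeR adjusted p = 0.049), and passed the test neither without KO2 (adjusted p = 0.28) nor without WT1 (0.19) or WT2 (0.067).

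Among the falls on chromosome 14, Zic2 and Zic5 are neighbouring genes for zinc finger transcription factors. Zic2 (chromosome 14, 122475384 to 122480328) had 24.8 and 29.0 CPM in WT and 13.4 and 15.1 CPM in the knockout, and edgeR gave a log2 difference of -0.92 ± 0.13 (SE, adjusted p = 0.00043). Zic5 had 29.9 and 30.7 CPM in WT and 19.7 and 17.6 CPM in the knockout. Klf12, a Krüppel-like repressor whose promoter is printed above, fell 1.66-fold and Sfmbt1, a chromatin protein gene, 1.63-fold. Klf12 had 11.5 CPM in KO1 and 7.68 CPM in KO2, and without KO2 its fall missed the threshold (edgeR adjusted p = 0.061).

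**Figure D5:**
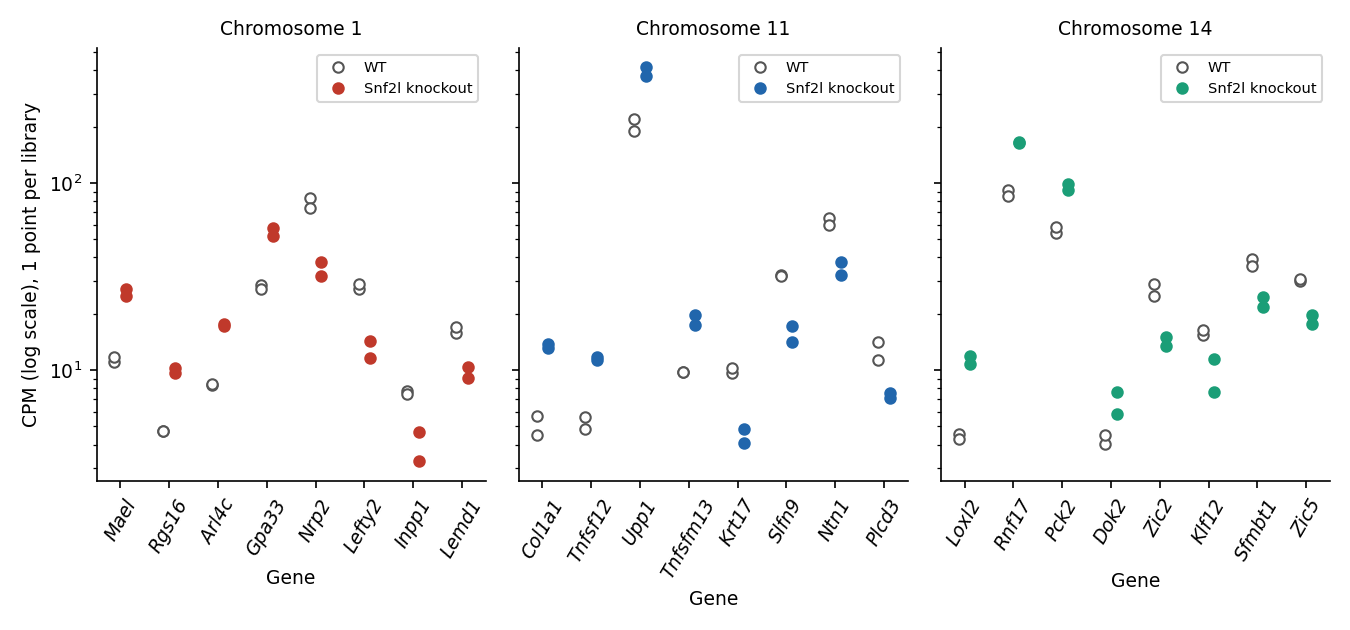
Level in CPM on a log scale (vertical axis) of the 8 called members that changed most on each chromosome, 4 upward and 4 downward (horizontal axis). Open points are the WT libraries and filled points the Snf2l knockout libraries, 1 point per library. The groups overlap for no gene, as the choice of genes required, and the steepest rise is that of Col1a1, from 5.66 and 4.50 CPM to 13.2 and 13.7 CPM.

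Lists of genes by function are given as counts, to be set beside the shares of all members, 70.9% above on chromosome 1 and 68.3% and 64.8% below on chromosomes 11 and 14. Over all 10658 genes 3.97% were called higher and 5.72% lower, and without chromosomes 8 and Y 4.14% and 1.84%. No list was tested against other genes. Of 14 splicing genes on chromosome 11, 13 lay below the reference, with a median of -0.088, while 3 of 4 on chromosome 1 lay above it and the 1 on chromosome 14 below. None of these 19 splicing genes passed the test in edgeR or DESeq2, and 2 had an unadjusted edgeR p under 0.05. Of 9 translation factors and aminoacyl-tRNA synthetases on chromosome 1, 8 lay above it, and all 5 on chromosome 11 lay below. One of the 9, the cap-binding protein gene Eif4e2, passed the test at 272 and 279 CPM in WT against 326 and 346 CPM in the knockout (edgeR adjusted p = 0.048). Its call was lost without WT1, WT2 or KO2, with adjusted p-values of 0.40, 0.26 and 0.15.

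DNA repair and p53 genes gave 9 of 11 below on chromosome 11, 5 of 6 above on chromosome 1 and 1 of 1 above on chromosome 14. None of these 18 was called by edgeR or DESeq2, and 5 had an unadjusted edgeR p under 0.05. Proteasome and chaperone genes gave 8 of 11 below on chromosome 11 and 3 of 3 above on chromosome 1. None of the 19 was called by edgeR or DESeq2, with 3 at an unadjusted edgeR p under 0.05. Their most abundant member, the mitochondrial chaperonin gene Hspd1, had 1612 and 1564 CPM in WT and 1618 and 1749 CPM in the knockout. Of 8 cell cycle and mitosis genes on chromosome 1, 7 lay above the reference, as did 6 of 16 on chromosome 11 and 1 of 4 on chromosome 14. Cdc27, a subunit of the anaphase-promoting complex on chromosome 11, was the one of these 28 that passed, at 209 and 188 CPM in WT and 166 and 138 CPM in the knockout (edgeR adjusted p = 0.028). It missed the threshold without WT1 (adjusted p = 0.27) or KO2 (0.15), and its log2 fold change went from -0.39 to -0.26 without KO2.

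Of 9 nucleosome remodeler subunits, all 4 on chromosome 11 and 3 of 4 on chromosome 14 lay below the reference. The other on chromosome 14 and the 1 on chromosome 1 lay above it. Chd3, which codes for a NuRD ATPase, fell from 43.2 and 38.0 CPM to 30.6 and 24.6 CPM (edgeR adjusted p = 0.0097), a call lost without WT1. Of the Polycomb, histone-modifying and DNA methylation genes 4 of 5 lay above on chromosome 1, and 8 of 11 and 4 of 5 below on chromosomes 11 and 14. Of these 21, 1 passed. That gene, Setdb2 on chromosome 14, codes for a histone methyltransferase and had 25.6 and 24.3 CPM in WT and 19.6 and 18.2 CPM in the knockout (edgeR adjusted p = 0.045). It lost its call without WT1, WT2 or KO2, at adjusted p-values of 0.27, 0.12 and 0.13.

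Of 13 genes of Nodal, BMP, TGF-beta and Wnt signalling, 2 rose and 3 fell, against 3.97% and 5.72% of all genes. Without chromosomes 8 and Y these shares were 4.14% and 1.84%. Of the 13 genes, 3 of 6 lay above on chromosome 1, and 3 of 5 and 1 of 2 below on chromosomes 11 and 14. Inhbb, an activin subunit on chromosome 1, rose from 119 and 116 CPM to 166 and 153 CPM (edgeR adjusted p = 0.0059, and 0.076 without WT2). Bmp4, a ligand on chromosome 14, rose from 18.4 and 19.3 CPM to 25.6 and 25.1 CPM (edgeR adjusted p = 0.030), a call lost without WT1 (0.22) or WT2 (0.11). Both Nodal inhibitors, Lefty1 and Lefty2, were among the falls. Of 17 genes of LIF, JAK-STAT and receptor kinase signalling, 2 of 3 lay above on chromosome 1, and 6 of 12 and 1 of 2 below on chromosomes 11 and 14. None was called by edgeR or DESeq2, and 6 had an unadjusted edgeR p under 0.05. The most abundant was Socs3, the feedback inhibitor of LIF signalling on chromosome 11, with 145 and 150 CPM in WT and 180 and 171 CPM in the knockout (edgeR adjusted p = 0.096, and 0.039 with the chromosome median taken out).

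Actin, intermediate filament and extracellular matrix genes stood mostly above the reference on all 3 chromosomes, 17 of 21 in all and 7 of 11 on chromosome 11. Of these 21, 4 rose and 1 fell, against 3.97% higher and 5.72% lower of all genes. Without chromosomes 8 and Y these shares were 4.14% and 1.84%. Beside Col1a1 the risers included Igfbp2 on chromosome 1, an IGF-binding protein gene with 157 and 177 CPM in WT and 248 and 279 CPM in the knockout (edgeR adjusted p = 0.00058). The fibroblast marker sum given above, which includes Col1a1, went with genotype here as well, and the part of such cells was not tested.

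The remaining lists had few members. Of 8 pluripotency regulators 4 lay above and 4 below, and the 2 that passed were the falls of Zic2 and Zic5. All 6 lineage transcription factors were on chromosome 11, 5 of them below the reference. Of 6 glycolysis and pentose phosphate genes 4 lay above and of 5 imprinted genes 1. None of these 3 lists had a call by edgeR or DESeq2, and 0, 3 and 2 of their genes had an unadjusted edgeR p under 0.05. Among the most abundant, Nfe2l1, a stress-response factor, had 265 and 262 CPM in WT and 254 and 250 CPM in the knockout, and the transketolase gene Tkt on chromosome 14 had 662 and 704 CPM against 635 and 707 CPM. Grb10, an imprinted growth inhibitor on chromosome 11, overlapped between genotypes at 383 and 353 CPM in WT and 402 and 350 CPM in the knockout.

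The count minimum left most rows of the 3 chromosomes out. On chromosome 1, 768 of 1393 rows had fewer than 50 counts in some library and 256 of these had 0 in all, on chromosome 11 it was 944 of 1836 and 323, and on chromosome 14 it was 505 of 879 and 219. A further 10, 11 and 2 rows were left out as Rpl, Rps, Nduf or Cox genes. The minimum also removes genes that drop out in 1 genotype, and 5, 10 and 5 rows on chromosomes 1, 11 and 14 met it in both WT libraries but not in both knockout libraries, while 20, 26 and 7 met it in the knockout alone. Just inside it were 1700034H15Rik on chromosome 1 with 51 to 72 counts per library, Afmid on chromosome 11 with 50 to 58 and Pnp2 on chromosome 14 with 50 to 70. Just outside it were A830018L16Rik with 49 to 79, Mfap4 with 49 to 79 and Kctd12 with 49 to 58.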

How the data were processed

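Poly(A) RNA of 4 libraries was sequenced, 2 WT and 2 Snf2l knockout. Per the study's methods the authors aligned reads to mm10 with QuasR and HISAT2, counted them over UCSC Known Genes and deposited raw counts per Entrez gene together with a gene length in bp. The submitters' processing notes name bcl2fastq 2.17. The strand setting of the counting is not given in the sources used here, so overlapping and antisense genes are uncertain. Of 24594 rows, 24570 (99.9%) were matched to RefSeq positions on GRCm38.p6, the build of mm10.

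Deposited counts were analysed with R 4.3.3 and edgeR 4.0.16, with filterByExpr (minimum count 10), TMM factors and the legacy quasi-likelihood fit with genotype as its term, two-sided, and Benjamini-Hochberg adjustment over 13840 genes. Each SE was taken as the absolute log2 fold change divided by the square root of the F statistic of the edgeR test. CPM used TMM-scaled library sizes, except that marker sums used library totals. Ratios were centred on the median of 10658 genes, which was -0.0055, except that fold changes of named genes are uncentred. DESeq2 1.42.0 was an alternative (805 genes had no adjusted p). The fit was tested on simulated data. Named genes were the 4 largest rises and falls among called, non-overlapping members of each chromosome, the 3 most abundant, those next to the count minimum, and from each of 14 lists up to 4 called members or else the most abundant. One gene that this rule names is not reported here. Members and lists were chosen with earlier results of these data known. The length-adjusted values by pair and by window were added after the data had been seen. Alternatives changed the scaling, centring, filter, test, block and libraries.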

Additional observations from a re-analysis of the deposited data

How the results depend on the processing

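No chromosome median changed sign under any alternative run. Moves are given where they exceeded 0.0141, the SD between replicates pooled over the 3 chromosomes, a limit set after the data had been seen. Upper-quartile scaling without centring moved the medians of chromosomes 1, 11 and 14 to 0.12, -0.062 and -0.043. Centring on the 15 other autosomes gave 0.070, -0.11 and -0.088, matching on gene length 0.075, -0.11 and -0.093, and matching on promoter GC 0.072, -0.10 and -0.083. Relative to the middle one of the other autosomes after the length adjustment, added later, they were 0.074, -0.11 and -0.094. Matching on mean CPM moved chromosome 14 to -0.089. With 1 library left out in turn the medians ran from 0.076 (without WT2) to 0.10 on chromosome 1, from -0.091 to -0.067 (without WT2) on chromosome 11 and from -0.081 to -0.071 on chromosome 14.

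DESeq2 called 31, 33 and 14 members on chromosomes 1, 11 and 14, a filter of at least 1 count left 15 on chromosome 14, and taking out each chromosome's own median left 26 on chromosome 1. With 1 library left out the calls ran from 27 to 96, from 30 to 132 and from 11 to 56, and the differentially expressed genes of chromosome 14 from 1 to 2. With the replicate number as a replicate block 182, 290 and 101 members were called, and lists with no call had 0 to 7 called members. Deviations from the group means of libraries with the same number correlated at 0.415 over 10658 genes, but 2 pairs with no stated shared origin do not establish a pairing, so the unblocked counts are reported. Of 594 alternative values of the 54 named genes 31 lost their call, 7 gained one and 27, in 13 genes that were not called, changed sign. No called gene did. The log2 fold change became -0.00059 (Hspd1), -0.036 (Hnrnpu), -0.041 (Ncl), 0.029 (Rack1), 0.031 (Nfe2l1), 0.047 (Tkt), 0.075 (Rpa1) and 0.086 (Afmid) with the chromosome median taken out, and 0.0053 (Tkt), 0.013 (Rpa1) and 0.024 (Afmid) under upper-quartile scaling. With 1 library left out it ran from -0.35 to 0.052 (1700034H15Rik), from -0.085 to 0.069 (Afmid), from -0.070 to 0.13 (Grb10), from -0.0067 to 0.11 (Hnrnpu), from -0.38 to 0.040 (Kctd12), from -0.12 to 0.44 (Mfap4), from -0.029 to 0.38 (Pnp2), from -0.16 to 0.025 (Rack1), from -0.040 to 0.0036 (Rpa1) and from -0.11 to 0.052 (Tkt). DESeq2 lost the calls of Bmp4, Dok2, Eif4e2 and Setdb2, and the filter of at least 1 count these and Cdc27. For members near 50 counts per library, the counting error alone exceeds the chromosome medians.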
